A study of Mus musculus with 3 samples.

Results

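Collagen chains were picked out by name on arrays of mouse adult liver, fetal liver and bone marrow. The rule took every gene spot whose name in the array file was Col, a type number, the letter a and a chain number. It caught 40 names on 82 probes. Col4a3bp matched by spelling but encodes a ceramide transfer protein, so it was set apart, and 39 chains on 78 probes remained of 19712 named genes in all. Of these chains 11 were fibrillar, 6 belonged to the type IV network of basement membranes, 3 to the basement membrane zone, 3 to beaded filaments, 3 to hexagonal networks, 8 were fibril-associated collagens with interrupted triple helices (FACIT), 4 were transmembrane and 1 was of another kind. A further 3 collagen genes stood on the arrays under older names (Col6a4, Col6a6 and Col26a1) and were outside the rule.

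All 3 tissues came from C57BL/6 mice without any stated genetic change or treatment. Adult liver was taken at 12 weeks and fetal liver at gestation day 13.5, and the protocol does not say whether the adult age also covers the mice that gave marrow. The labels state neither the sex nor how many animals were pooled. Total RNA of each tissue was hybridised once to a 1-colour Agilent array. There is therefore no replicate check, no test and no spread between animals, and every comparison describes these 3 RNA samples.

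Collagens are the main structural proteins of the extracellular matrix. Chains combine in sets of 3 into a triple helix, within the endoplasmic reticulum, after hydroxylation of proline and lysine by dedicated enzymes. Fibrillar types then lose their end pieces outside the cell and assemble into cross-linked fibrils, type IV forms the sheet of basement membranes, and FACIT types sit on fibril surfaces. In liver the stellate cells and portal fibroblasts are known as main sources of fibrillar collagen and sinusoidal endothelium as a source of type IV. In bone marrow, osteoblasts and stromal cells make type I.

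The arrays carried 45018 spots, 43379 of them for genes, and no gene spot was saturated. Levels are given as scaled signal, the processed signal of a probe divided by the 75th percentile of the gene spots on its array, so that 1 lies at that percentile. The percentile was 296 for the adult array, 387 for the fetal array and 894 for marrow. Scaled signals compare tissues for the same probe and not different probes. A probe was read as detected where the scanner software marked it well above background. The probe detected on the largest number of arrays represented a gene, and the brighter probe did so in a tie. The labelled tissues were checked by marker genes. The hepatocyte markers summed to a scaled signal of 1382 in adult and 189 in fetal liver, and 0.441 in marrow, where Alb, Ttr and Apoa1 were not well above background. The erythroid markers summed to 0.643, 488 and 266, and the neutrophil markers to 0.131, 56.6 and 1026.

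Of the 39 chains, 24 were well above background in adult liver (61.5%, against 65.4% of all genes). Fetal liver had 30 (76.9%, against 70.4%), and 28 were detected in bone marrow (71.8%, against 70.7%). On all 3 arrays 23 chains were detected, on 2 arrays 4 chains and on 1 array 5 chains. The remaining 7 were not well above background anywhere: Col10a1, Col12a1, Col19a1, Col28a1, Col4a3, Col6a3 and Col9a1. Among the 32 detected chains the signal under percentile scaling was highest in fetal liver for 18, adult liver for 9 and marrow for 5. These counts include near ties, such as Col6a1 at 0.295 in adult and 0.3 in fetal liver. They also include Col2a1, whose probes disagreed. The same count was not made over all genes, so it is not read as a trait of collagens. Since these are bulk tissues, fewer cells of a type and less RNA per cell cannot be told apart.

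**Figure D1:**
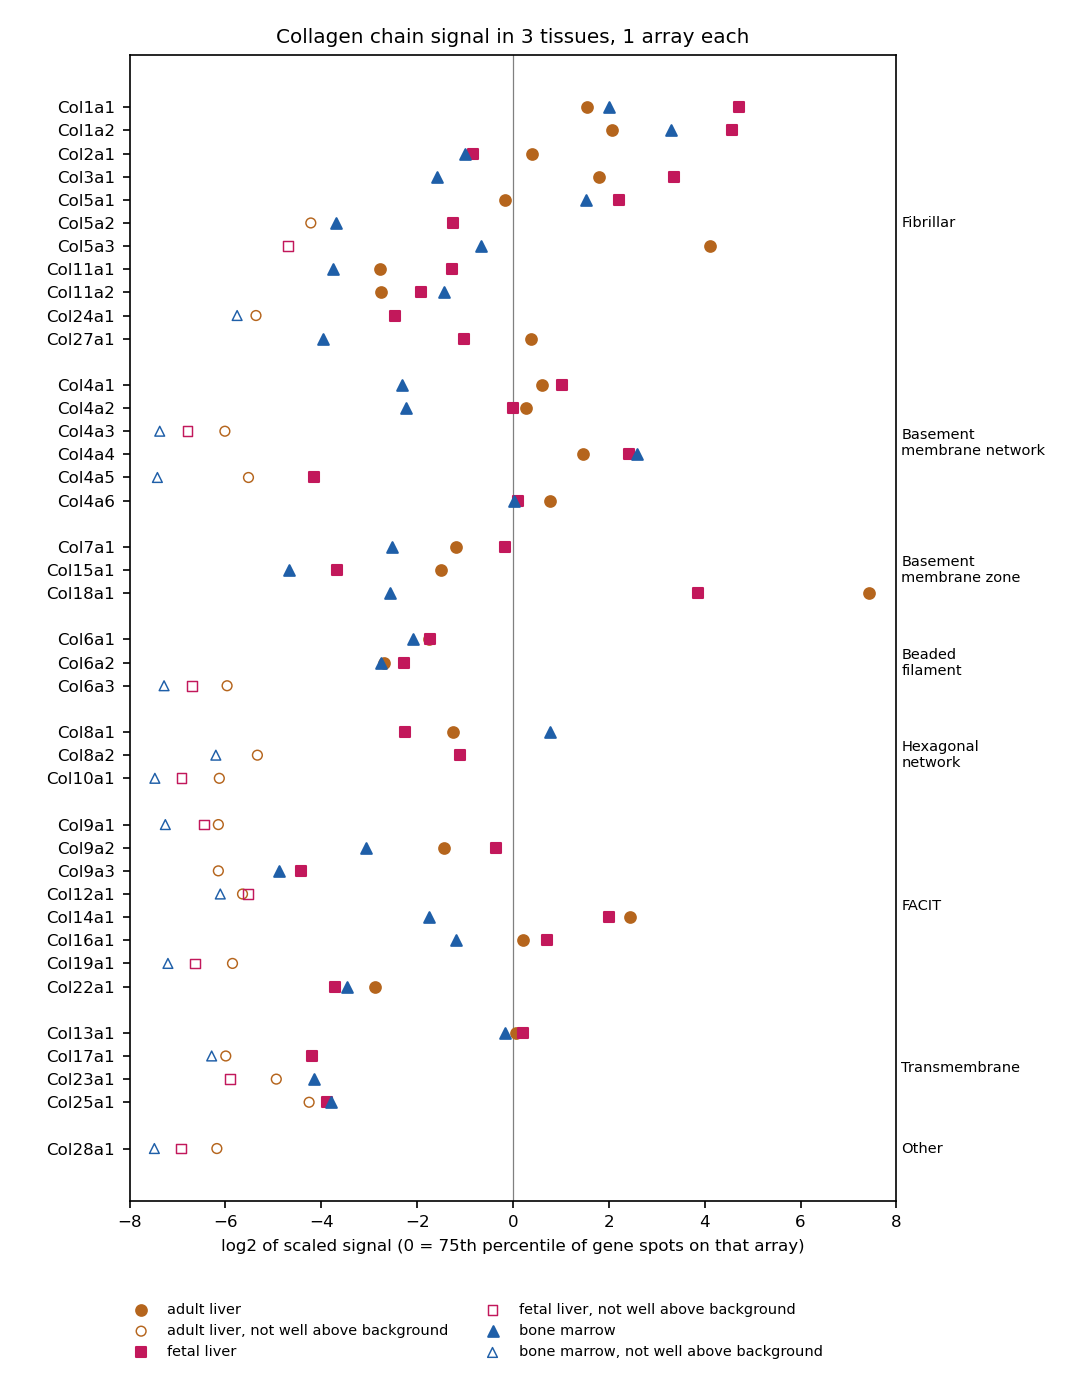
Each row is a collagen chain, grouped by class, and the horizontal axis is log2 of the scaled signal, with 0 at the 75th percentile of gene spots of that array. Circles are adult liver, squares fetal liver and triangles bone marrow, 1 array each, and open symbols are values not well above background. Col1a1, Col1a2 and Col3a1 lie highest in fetal liver, Col18a1 and Col5a3 in adult liver and Col8a1 in bone marrow, while 7 chains have open symbols in all 3 tissues.

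Promoters of RefSeq (build GRCm38.p6) were available for 31 of the 39 chains, in 34 windows of 250 bases before a transcription start. Col12a1, Col14a1, Col1a1, Col22a1, Col2a1, Col4a3, Col5a2 and Col9a3 had no entry. They are shown for chains with large differences between the tissues: Col1a2 and Col3a1, with their highest scaled signal in fetal liver, and Col18a1, with its highest in adult liver, which has entries for 2 starts. Capitals mark matches to short motifs on either strand. The TATA box was searched as the letters TATAAA. The CCAAT box was searched as its name spells it. The GC box was searched as the letters GGGCGG. The last base of each line is the base before the start.

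Col1a2, chr6:4505368-4505617, plus strand: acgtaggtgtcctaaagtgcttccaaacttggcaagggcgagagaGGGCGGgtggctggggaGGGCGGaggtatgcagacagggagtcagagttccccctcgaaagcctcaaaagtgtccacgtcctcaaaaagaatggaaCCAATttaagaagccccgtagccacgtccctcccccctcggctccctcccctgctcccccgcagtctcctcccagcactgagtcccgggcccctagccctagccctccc
Col3a1, chr1:45311288-45311537, plus strand: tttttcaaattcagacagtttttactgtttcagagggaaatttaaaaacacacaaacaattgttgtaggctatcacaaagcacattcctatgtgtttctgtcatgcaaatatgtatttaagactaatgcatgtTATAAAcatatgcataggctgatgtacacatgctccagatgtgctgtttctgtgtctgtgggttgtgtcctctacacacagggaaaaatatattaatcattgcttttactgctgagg
Col18a1, chr10:77166531-77166780, minus strand: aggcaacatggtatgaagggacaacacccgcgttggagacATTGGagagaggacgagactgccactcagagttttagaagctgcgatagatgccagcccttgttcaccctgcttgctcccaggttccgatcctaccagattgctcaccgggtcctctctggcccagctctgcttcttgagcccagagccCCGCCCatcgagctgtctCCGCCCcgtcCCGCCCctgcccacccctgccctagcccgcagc
Col18a1, chr10:77113706-77113955, minus strand: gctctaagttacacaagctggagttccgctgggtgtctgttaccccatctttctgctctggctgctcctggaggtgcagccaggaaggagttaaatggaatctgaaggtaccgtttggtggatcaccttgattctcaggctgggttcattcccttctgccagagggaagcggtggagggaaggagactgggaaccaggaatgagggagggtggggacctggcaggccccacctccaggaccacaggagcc

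The Col1a2 window held 2 GC boxes, the nearer 188 bases before the start, and a CCAAT box at 109 bases. The Col3a1 window held a single match, a TATAAA 117 bases before the start. The start of Col18a1 at 77166530 had 3 GC boxes, the nearest at 33 bases, and a CCAAT box at 210 bases, whereas the other start at 77113705 had no match to any of the 3 motifs. The probes of Col18a1 were not assigned to either start here. Over the 34 chain windows, a TATA box was found in 5 (14.7%, against 12.4% of all 32851 RefSeq windows), a CCAAT box in 12 (35.3%, against 33.8%) and a GC box in 19 (55.9%, against 32.7%). A match is a string of letters and not a bound site. No match in these 4 sequences overlapped another.

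The chains of type I collagen, the most abundant fibrillar type of the body, passed 4-fold between the livers, with fetal liver above. Col1a1, the chain that with Col1a2 builds type I collagen, had a scaled signal of 2.9 in adult and 26.4 in fetal liver, and 3.99 in marrow. Its probe (build mm9, chr11:94813075-94813134) was spotted 10 times. The 10 spots ran from 2.58 over a median of 2.91 to 3.22 in adult liver, from 24.5 over 26.5 to 28.9 in fetal liver and from 3.72 over 3.98 to 4.3 in marrow. No spot of fetal liver overlapped one of the other tissues, and adult liver and marrow did not overlap either. Fetal liver was 9.1-fold above adult liver (log2 difference 3.19, scanner error 0.06) and 6.61-fold above marrow (2.72, error 0.06). These errors are those of the spots on an array and say nothing of animals.

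Col1a2 followed the same order, with scaled signals of 4.19 in adult liver, 9.77 in marrow and 23.6 in fetal liver. Fetal liver was 5.63-fold above adult liver and 2.41-fold above marrow, the latter within the 4-fold threshold used throughout. Both type I chains were thus lowest in adult liver, and fetal liver lay above marrow for both with this scaling. In unscaled processed signal, Col1a2 read 9120 in fetal liver and 8730 in marrow.

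Col3a1, the chain of type III collagen that accompanies type I in soft organs, had scaled signals of 3.48 in adult and 10.2 in fetal liver, and 0.334 in marrow (chr1:45405589-45405648, mm9). Fetal liver was 2.93-fold above adult liver and 30.5-fold above marrow, and adult liver 10.4-fold above marrow. Unlike the type I chains, whose adult liver values lay below those of marrow (log2 differences of -0.46 for Col1a1 and -1.22 for Col1a2), Col3a1 was lowest in marrow. Whether this contrast between chains exceeds sample variation could not be tested.

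Type V collagen, which co-assembles with type I and limits fibril width, was split by chain. Col5a1 had scaled signals of 0.885 in adult and 4.65 in fetal liver, and 2.86 in marrow, and fetal liver was 5.25-fold above adult liver. A second Col5a1 probe gave a log2 difference of 1.06 there, under the threshold. It put fetal liver 4.59-fold above marrow, against 1.62-fold on the first probe. Adult liver lay above marrow on the second probe (log2 difference 1.14) and below it on the first (-1.69). Col5a2 was not well above background in adult liver and read 0.419 in fetal liver and 0.0771 in marrow, which made fetal liver at least 6.56-fold above adult liver and 5.43-fold above marrow. "At least" is used where a probe was dim in 1 tissue. The fold then rests on the higher of its own scaled signal and the lowest scaled signal of any probe well above background on that array (0.0639 in adult liver, 0.0388 in fetal liver, 0.0265 in marrow).

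Col5a3, another type V chain known from some soft tissues, ran the other way. Its scaled signal was 17.2 in adult liver and 0.634 in marrow, and it was not well above background in fetal liver (chr9:20574592-20574651, mm9). Adult liver was at least 444-fold above fetal liver and 27.1-fold above marrow, and marrow at least 16.4-fold above fetal liver. Only the probe starting at base 5928 of the transcript showed this. A second probe, starting at base 2735, was not well above background on any array. With normexp the log2 difference of fetal minus adult liver was -6.40, and with the mean over both probes -4.70. Fetal liver against marrow then came to -1.96 and -0.65, under the threshold.

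The minor fibrillar chains were detected at several levels. Col11a1, a chain of type XI collagen, had scaled signals of 0.147 in adult and 0.413 in fetal liver, and 0.0735 in marrow, and fetal liver was 5.63-fold above marrow. Its partner Col11a2 read 0.149, 0.264 and 0.367 in the same order of tissues and stayed within 4-fold in every comparison with percentile scaling. Col24a1 was detected only in fetal liver, at 0.182, at least 6.85-fold above marrow and at least 2.84-fold above adult liver. Its second probe, starting at base 6640 of the transcript, was not well above background on any array. Col27a1 had 1.29 in adult and 0.494 in fetal liver, and 0.0639 in marrow, so marrow lay 20.2-fold below adult liver and 7.73-fold below fetal liver. Both are fibrillar chains described in cartilage and bone matrix. Another Col27a1 probe detected on all 3 arrays put marrow 9.35-fold below adult liver and only 1.93-fold below fetal liver. The remaining Col27a1 probe was dim in marrow and read 0.211 in adult and 0.249 in fetal liver, the opposite order of the livers. Of 6 chondrocyte markers, Matn1, Matn3, Cnmd and Hapln1 were not well above background on any array. Acan, the cartilage proteoglycan, was detected on all of them at 0.389 in adult and 0.0814 in fetal liver, and 0.055 in marrow. That is the order of Col27a1 on its representing probe. Comp was detected in fetal liver and marrow. The part of cartilage cells was not tested.

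Col2a1, the main chain of cartilage, gave contradictory readings. Its representing probe had scaled signals of 1.32 in adult and 0.561 in fetal liver, and 0.501 in marrow. A second probe, starting at base 4621 of the transcript against base 4601 for the first and spotted 10 times, had medians of 0.451, 1.43 and 0.099. On the first probe fetal liver lay below adult liver (log2 difference -1.24) and on the second above it (1.65), while the remaining probe was dim everywhere. The spread over the 10 spots was a coefficient of variation of 7.52% in adult and 3.02% in fetal liver, and 9.98% in marrow, far below the gap between the probes. No direction is given for Col2a1.

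**Figure D2:**
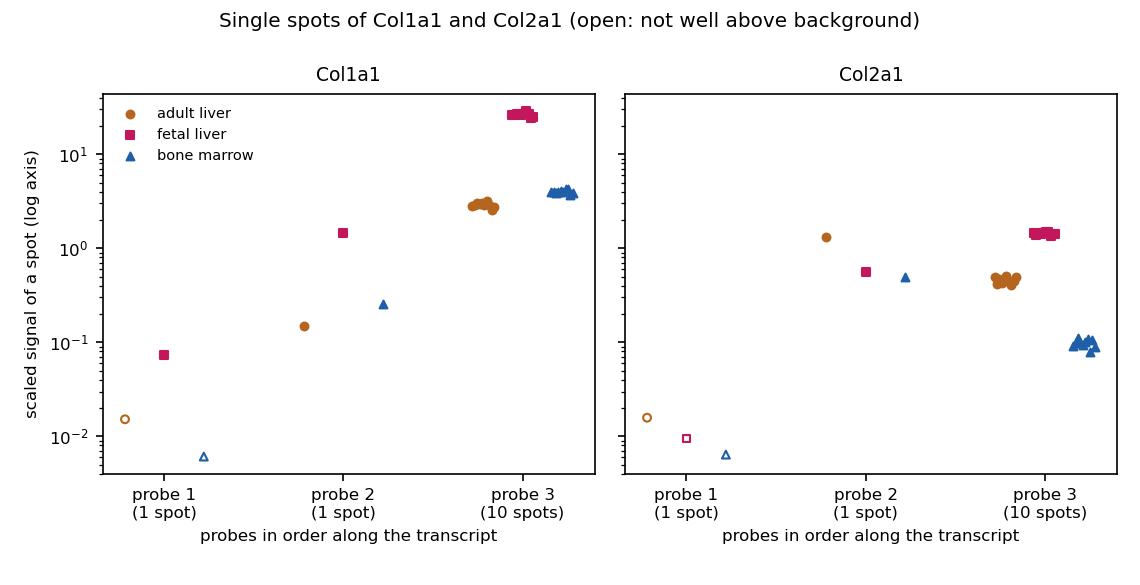
Each point is a spot, with scaled signal on a log axis, and the probes of Col1a1 and Col2a1 stand in order along the transcript. Circles are adult liver, squares fetal liver, triangles bone marrow, and open symbols spots not well above background. On the Col1a1 probe with 10 spots, fetal liver (24.5 to 28.9) lies above adult liver (2.58 to 3.22) and marrow (3.72 to 4.3), and on the last 2 probes of Col2a1 the order of adult and fetal liver is opposite.

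Between fetal and adult liver, 28 chains could be compared. At least 4-fold higher in fetal liver were 5 chains, Col1a1, Col8a2, Col5a2, Col1a2 and Col5a1, which is 17.9% against 12.0% of the 14185 genes compared. At least 4-fold higher in adult liver were 3 chains, Col5a3, Col18a1 and Col15a1, which is 10.7% against 14.2% of genes. The 4 of these in the fibrillar class that were higher in fetal liver came from 11 compared (36.4%), with a class median log2 difference of 1.51. Over all 28 chains the median was 0.42, and over all genes 0.05. The share over all chains thus stood near that over all genes in both directions. Nearest to the threshold were Col15a1 at 4.53-fold, inside it, and Col3a1 at 2.93-fold, outside.

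Several of these calls hung on the processing. With background corrected by normexp, Col5a2 and Col8a2 had log2 differences of 1.15 and 1.37, under the threshold. Averaged over all their probes, Col1a2 and Col5a1 had 1.5 and 1.73. Col15a1 lay between -1.75 and -1.26 under those settings, under spike-in scaling and in the authors' normalized column. Between the livers, Col1a1, Col5a3 and Col18a1 stayed past 4-fold under each of the 7 alternatives run on single chains.

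Of the stellate and mesenchymal cell markers, 9 of 9 were detected in adult liver and 7 of 9 in fetal liver, Lrat and Rgs5 being dim in the latter. Lrat, Rgs5 and Colec11 passed 4-fold toward adult liver (33.3%, against 14.2% of genes) and none of the 9 toward fetal liver (against 12.0%). Their summed scaled signals were 39.5 in adult liver and 43.6 in fetal liver, and 3.28 in marrow. Smooth muscle markers summed to 31.4, 13.6 and 23.7, a sum led by Tagln in the livers. The other 3, Acta2, Myh11 and Cnn1, were higher in fetal than in adult liver by 0.50, 0.77 and 0.63 on the log2 scale. Mesothelial markers, which line the organ surface, summed to 0.511, 1.13 and 0.0171, with none of 3 detected in marrow and Upk3b dim in adult liver. Wt1 was higher in fetal liver, while Msln ran the other way, at 0.358 in adult and 0.216 in fetal liver. The part of these cell types in the differences of the chains was not tested.

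Col4a1 and Col4a2 were at least 4-fold lower in marrow than in either liver with percentile scaling. They form the common type IV helix and lie head to head, with annotated starts 21 bases apart on opposite strands of chromosome 8. The annotated start of Col4a2 lies within the Col4a1 transcript, so the transcripts overlap at their starts. Col4a1 had scaled signals of 1.53 in adult and 2.03 in fetal liver, and 0.201 in marrow. Col4a2 had 1.21, 1.0 and 0.213. On these probes the livers differed by 1.32-fold for Col4a1 and 1.21-fold for Col4a2, and marrow lay below them by 10.1-fold and 7.62-fold for Col4a1 and by 4.71-fold and 5.71-fold for Col4a2. A second probe of each chain gave smaller gaps to marrow, of 1.04 and 1.75 on the log2 scale for Col4a1 and 0.71 and 1.13 for Col4a2, all under the threshold. Between the livers the second probes gave -0.70 for Col4a1, opposite to the first probe, and -0.42 for Col4a2.

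The other type IV chains, known from kidney, ear and eye basement membranes, were unevenly detected. Col4a4 had scaled signals of 2.74 in adult and 5.35 in fetal liver, and 6.03 in marrow on a probe whose partner was dim on all 3 arrays. Col4a3, which pairs with it in the kidney filter, was not well above background anywhere on any of its 3 probes. Col4a5 was detected only in fetal liver, at 0.0566. Col4a6 read 1.7, 1.07 and 1.02 on the representing probe. Of its other probes, 1 was detected in fetal liver alone and 1 nowhere. The former put fetal liver at least 7.06-fold above marrow. On their representing probes and with percentile scaling, none of Col4a4, Col4a5 and Col4a6 passed 4-fold in any comparison.

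Col18a1, of the basement membrane zone, had the largest measured difference of any chain, between adult liver and marrow. It is a proteoglycan collagen whose end fragment is endostatin, and hepatocytes are known to make it. Its scaled signal was 173 in adult and 14.5 in fetal liver, and 0.168 in marrow (chr10:76515820-76515879, mm9). Adult liver was 11.9-fold above fetal liver (log2 difference of fetal minus adult liver -3.57, scanner error 0.20) and 1031-fold above marrow (10.01, error 0.21), and fetal liver was 86.6-fold above marrow. A second probe gave -3.86, 10.14 and 6.28 for the same comparisons, so both probes passed 4-fold in each. The hepatocyte markers stood in the same order, at 1382, 189 and 0.441, and the part of cell composition was not tested.

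Col15a1, a close relative of Col18a1, had scaled signals of 0.355 in adult and 0.0783 in fetal liver, and 0.0389 in marrow. Adult liver was 4.53-fold above fetal liver and 9.11-fold above marrow. Its second probe was dim in all 3 tissues. Col7a1, which forms the anchoring fibrils under skin epithelium, had 0.436, 0.894 and 0.173, and fetal liver was 5.16-fold above marrow. Of the 3 chains of this zone, 2 were past 4-fold toward adult liver over fetal liver, against 14.2% of genes, and Col15a1 lost that call under 4 alternatives.

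Endothelial markers, among them Kdr and the sinusoidal genes Stab2 and Lyve1, were all detected on every array and summed to 15.3 in adult and 13.8 in fetal liver, and 1.84 in marrow. Pecam1 of that list was highest in marrow, at 0.247 against 0.173 and 0.141. The sum stood lowest in the tissue in which Col4a1, Col4a2, Col15a1, Col18a1 and Col7a1 had their lowest signals under percentile scaling. Col4a4 was instead highest in marrow, at 6.03. Chains of other classes, such as Col3a1, Col14a1 and Col27a1, were also lowest in marrow, so the match is not particular to basement membrane chains. The part of endothelial cells in those values was not tested.

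Beaded filaments of type VI surround cells in most connective tissue. Col6a1 had scaled signals of 0.295 in adult and 0.3 in fetal liver, and 0.234 in marrow, and Col6a2 had 0.154, 0.208 and 0.148. On their representing probes and with percentile scaling, neither chain differed by more than 1.41-fold in any comparison. Col6a3, which completes the classical type VI helix with them, was not well above background on any array with either of its 2 probes.

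Hexagonal networks of type VIII, known from vessel walls and the cornea, showed opposite chains. Col8a1 was highest in marrow, with scaled signals of 0.422 in adult and 0.211 in fetal liver, and 1.72 in marrow (chr16:57627033-57627092, mm9). Marrow was 8.16-fold above fetal liver and 4.08-fold above adult liver. A second probe was detected in marrow only. Col8a2 was detected only in fetal liver, at 0.465, at least 7.28-fold above adult liver and at least 17.5-fold above marrow. Col10a1, the chain of hypertrophic cartilage, was dim everywhere.

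Among the FACIT chains, Col14a1, found along fibrils near tendon and vessel walls, had scaled signals of 5.44 in adult and 4.03 in fetal liver, and 0.296 in marrow. The livers differed by 1.35-fold, and marrow lay 18.3-fold below adult and 13.6-fold below fetal liver. Col9a2, a chain of type IX, had 0.368, 0.78 and 0.119, with fetal liver 6.58-fold above marrow. Col16a1 had 1.15, 1.64 and 0.437 and stayed within 4-fold with percentile scaling, as did Col22a1 with 0.136, 0.0767 and 0.0907. Col9a3 was detected in fetal liver and marrow only, at 0.0468 and 0.0339. Col9a1, which completes the type IX helix, was not well above background on any array, and neither were Col12a1 and Col19a1.

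With percentile scaling, no comparison of the 4 transmembrane chains, which sit in the plasma membrane, reached 4-fold. Col13a1 had scaled signals of 1.04 in adult and 1.16 in fetal liver, and 0.889 in marrow. Its second probe was detected in marrow only and put marrow at least 1.5-fold above fetal liver, opposite to the first. Col25a1 was dim in adult liver and read 0.0677 and 0.0717 in the other tissues. Col17a1 was detected only in fetal liver (0.055) and Col23a1 only in marrow (0.0562). Col28a1, the chain of another kind, was not well above background on any array.

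Between fetal liver and bone marrow, 32 chains could be compared, and 13 were at least 4-fold higher in fetal liver, which is 40.6% against 9.29% of the 14680 genes compared. They were Col18a1, Col3a1, Col8a2, Col14a1, Col4a1, Col27a1, Col24a1, Col1a1, Col9a2, Col11a1, Col5a2, Col7a1 and Col4a2. Only Col5a3 and Col8a1 were at least 4-fold higher in marrow, which is 6.25% against 8.32% of genes. The median log2 difference was 1.07 over the chains and 0.26 over all genes. Fibrillar chains accounted for 6 of the 13, from 11 compared (54.5%). Nearest to the threshold stood Col4a2 at 4.71-fold, inside, and Col16a1 at 3.74-fold, outside.

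Between adult liver and bone marrow, 26 chains could be compared. At least 4-fold higher in adult liver were 8, Col18a1, Col5a3, Col27a1, Col14a1, Col3a1, Col15a1, Col4a1 and Col4a2, which is 30.8% against 18.8% of the 14245 genes compared. At least 4-fold higher in marrow was Col8a1 alone, which is 3.85% against 15.0% of genes. The median log2 difference was 0.87 over the chains and 0.09 over all genes. The comparisons with marrow share its single array, and the liver comparisons share theirs.

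Both marrow comparisons depend on how the arrays were brought to a common scale. When the mean of 229 spike-in control spots replaced the 75th percentile, the split of chains turned from 13 against 2 to 2 against 9 between fetal liver and marrow, and from 8 against 1 to 1 against 14 between adult liver and marrow. Those counts come from 30 and 28 chains compared. All genes turned too, to 315 against 7780 of 14349 and to 849 against 9635 of 14542, with medians of -2.11 and -2.71. Relative to that median, the chains stood 0.81 higher in fetal liver than in marrow with the percentile and 0.93 with spike-ins, and 0.78 and 0.71 higher in adult liver. With spike-ins, Col18a1 and Col3a1 remained past 4-fold in fetal liver against marrow, at log2 differences of 4.11 and 2.61, and Col18a1 in adult liver against marrow, at 7.18. Col4a2 turned to -0.09 and -0.31. With normexp, Col4a2, Col5a2, Col7a1, Col11a1 and Col24a1 came under 4-fold between fetal liver and marrow, at log2 differences from 1.72 to 1.96, and Col8a1 came under it between adult liver and marrow, at -1.65.

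**Figure D3:**
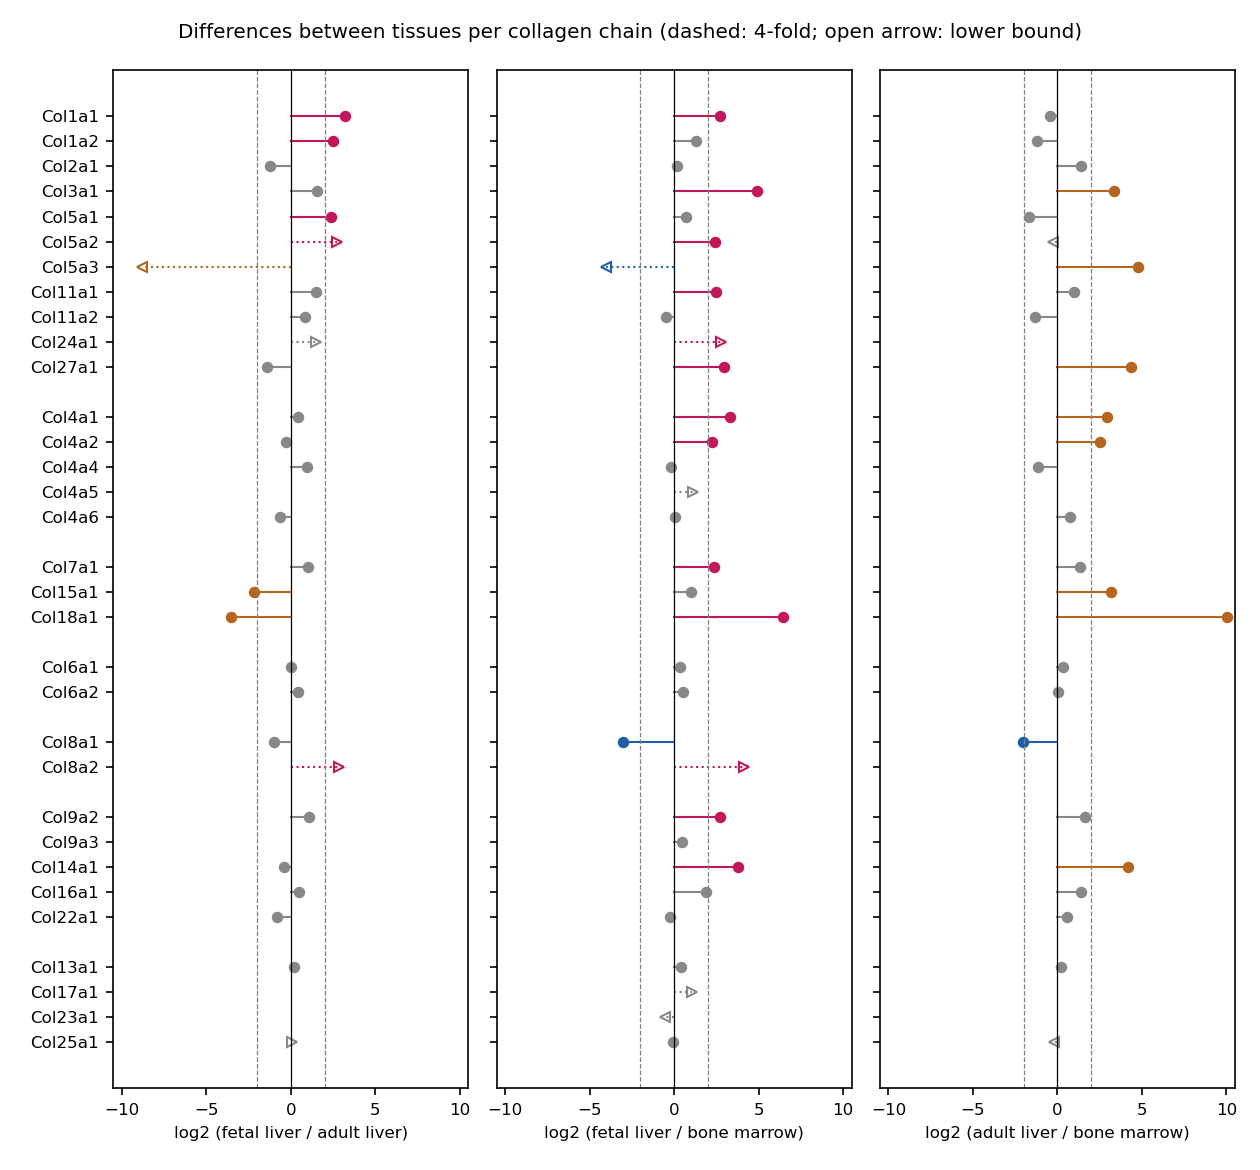
Each panel is a comparison of 2 tissues, with log2 of the first over the second on the horizontal axis and the chains in class order. Filled points are chains detected in both tissues, open arrows are lower bounds, dashed lines mark 4-fold, and colour gives the tissue in which a chain was past 4-fold. Col18a1 at 10.01 and Col5a3 at -8.79 or beyond lie farthest from 0, and most coloured chains in the marrow panels lie toward liver, a split that turns when spike-ins set the scale.

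**Figure D4:**
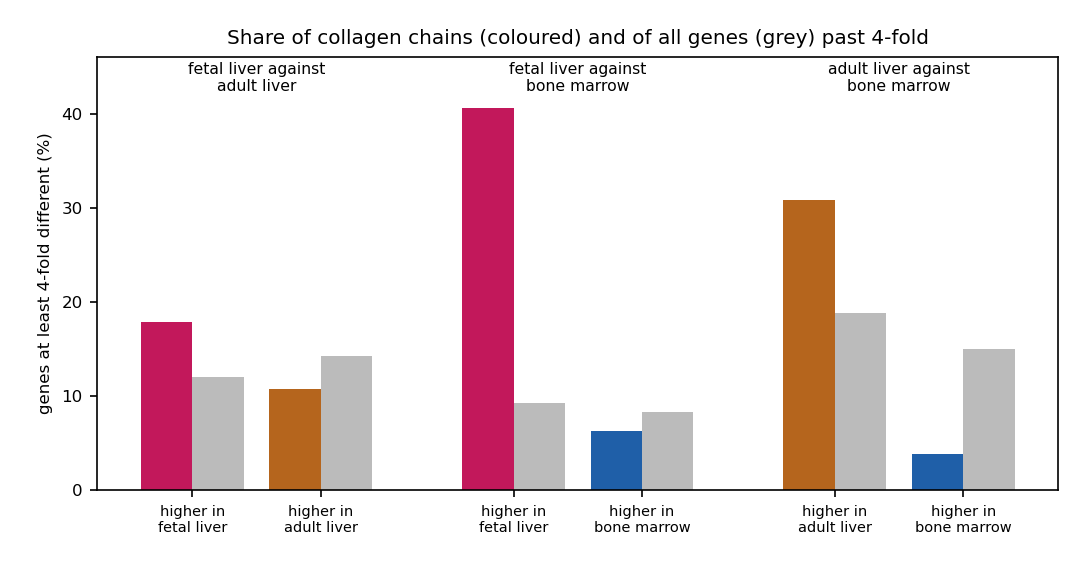
Bars give the percentage of genes at least 4-fold different in each direction of the 3 comparisons, coloured for the collagen chains compared (28, 32 and 26) and grey for all genes compared. The chains' share stands at 40.6% against 9.29% for fetal liver over marrow and 30.8% against 18.8% for adult liver over marrow with percentile scaling, and turns toward marrow with spike-in scaling.

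In the comparisons with marrow, markers of bone-forming and stromal cells that passed 4-fold did so toward marrow, except Alpl. Of 6 osteoblast markers 5 were detected there, all but Dmp1, against 3 in fetal liver and 1 in adult liver, and Bglap, Ibsp and Runx2 were at least 4-fold higher in marrow than in either liver. Those are 3 of 5 compared with fetal liver (against 8.32% of genes) and 3 of 4 compared with adult liver (against 15.0%). Alpl ran the other way, at 4.36, 2.04 and 0.834 in adult liver, fetal liver and marrow, so that the list summed to 4.47, 2.25 and 3.66. Of the marrow stroma and fat list, Adipoq and Ebf3 passed 4-fold toward marrow in both comparisons. Cxcl12 passed it over fetal liver only, and Kitl and Lepr over adult liver only. That is 3 of 5 compared with fetal liver (against 8.32% of genes) and 4 of 5 with adult liver (against 15.0%). None passed it toward a liver. Cxcl12 read 43.2 in adult liver and 38.0 in marrow, and the list summed to 43.4, 9.34 and 43.2. Over the same arrays Col1a1 and Col1a2 were within 4-fold between marrow and adult liver with percentile scaling. Spike-in scaling moved the median log2 difference of all genes in that comparison from 0.09 to -2.71, toward marrow. The part of bone-lining cells in the marrow values was not tested.

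Chains that share a helix did not always move together. On the representing probes, the log2 differences between fetal and adult liver were 3.19 and 2.49 for Col1a1 and Col1a2. They were 2.39 and at least 2.71 for Col5a1 and Col5a2, and 0.02 and 0.43 for Col6a1 and Col6a2. Col4a1 and Col4a2 had 0.41 and -0.28, with scanner errors of 0.20 and 0.21, while their second probes gave -0.70 and -0.42, both toward adult liver. Between fetal liver and marrow the representing probes gave 2.72 and 1.27 for the type I pair and 3.33 and 2.23 for the type IV pair. Col8a1 and Col8a2 were opposed, at -3.03 and at least 4.13. Col11a1 and Col11a2 were at 2.49 and -0.48.

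Probes of the same chain did not always agree. With 2 or more probes to compare, 9 chains could be checked between the livers, and their probes pointed in opposite directions for 5 of them. Between fetal liver and marrow it was 1 of 12, and between adult liver and marrow 1 of 9. In no comparison did a chain have probes past 4-fold in both directions. Of chains with any probe past 4-fold, all probes passed it in the same direction for 1 of 4, 2 of 9 and 2 of 6. Col18a1 was among them in every comparison. On transcripts with several positioned probes, the last probe was detected on more arrays than the first for 9 of 24. The reverse held for 4, and 11 were equal. Of 6 probes that started within the first 1100 bases of a RefSeq transcript, in chains with several probes, 5 were detected on no array. None of these counts of probes was made over all genes, so they are not read as a trait of collagens.

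The enzymes and chaperones that build collagen were followed as a group of 21 genes. Between the livers 18 could be compared, and Fkbp10, P3h4 and Serpinh1 were at least 4-fold higher in fetal liver (16.7%, against 12.0% of genes), while Tmem38b and P4hb were higher in adult liver (11.1%, against 14.2%). Both shares lay near those of all genes. Serpinh1, the collagen-specific chaperone, had scaled signals of 8.01 in adult and 42.9 in fetal liver, and 3.75 in marrow. Fkbp10, a prolyl isomerase that acts on procollagen, had 0.389, 3.8 and 0.492. Both were highest in fetal liver, as were the type I chains, but Serpinh1 was lowest in marrow and the type I chains in adult liver. Others of the list peaked elsewhere, such as Ppib and Mia3 in adult liver, at 74 and 21.4, and Plod3 in marrow, at 6.3. P4hb, a subunit of prolyl 4-hydroxylase that also acts as a general disulphide isomerase, had 130.1, 31.8 and 19.8.

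Against marrow, 20 genes of the group could be compared with fetal liver. At least 4-fold higher in fetal liver were 6, Serpinh1, P4ha2, P3h4, Fkbp10, Fkbp14 and Plod2 (against 9.29% of genes), and Tmem38b was higher in marrow (5%, against 8.32%). Adult liver exceeded marrow past 4-fold for 4 of 17 (23.5%, near the 18.8% of genes), P4ha2, Fkbp14, P4hb and Mia3, the last a protein that loads procollagen for export. P4ha2, a catalytic subunit of prolyl 4-hydroxylase, had 2.63 in adult and 1.48 in fetal liver, and 0.131 in marrow. Plod2, a lysyl hydroxylase that sets cross-link type, was dim in adult liver and read 0.223 and 0.0512 in the other tissues.

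Outside the cell, 8 procollagen processing genes were listed. Bmp1, the C-terminal proteinase, had scaled signals of 17.1 in adult and 2.31 in fetal liver, and 0.417 in marrow, past 4-fold in all 3 comparisons. Pcolce2, an enhancer of that cleavage, was highest in fetal liver at 3.62, against 0.784 in adult liver and a dim value in marrow. Pcolce, its relative, stayed within 4-fold with percentile scaling, at 4.02, 6.36 and 3.72. Of the 5 cross-linking enzymes, Loxl2 alone passed the threshold with percentile scaling, in fetal liver over marrow (1 of 4 compared, against 9.29% of genes). Its scaled signals were 0.486, 1.71 and 0.275.

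Of 15 proteins that bind collagen fibrils or basement membranes, 14 could be compared between the livers. Thbs1 passed 4-fold toward fetal liver (7.14%, against 12.0% of genes), and Tnxb, Fn1 and Dcn passed it toward adult liver (21.4%, against 14.2%). Dcn, the small proteoglycan decorin that binds fibrils, had 33.7 in adult and 6.85 in fetal liver, and 2.14 in marrow, an order unlike that of the type I chains. Lum, its relative lumican, had 2.01, 7.39 and 0.615. Nid1 and Nid2, which tie laminin to type IV collagen, were both at least 4-fold higher in fetal liver than in marrow, as were Postn, Lum and Fbn2. These are 5 of 14 compared (35.7%, against 9.29% of genes).

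Receptors for collagen were listed as 9 genes. Itga1, the collagen-binding integrin chain, had 0.486 in adult and 1.25 in fetal liver, and 0.0445 in marrow. Gp6, the collagen receptor of platelets, was dim in adult liver and read 0.943 and 1.73 in the other tissues. Lair1, an inhibitory collagen receptor of leukocytes, was highest in marrow at 2.46, against 0.77 and 0.216. The megakaryocyte markers summed to 1.17 in adult and 136 in fetal liver, and 146 in marrow, lowest in adult liver as Gp6 was. Between fetal liver and marrow the list was mixed. Pf4 was higher in fetal liver, at 99.5 against 64.5, unlike Gp6, while Itga2b, Gp9 and Ppbp were higher in marrow. The part of megakaryocytes in the Gp6 values was not tested. Ddr1 and Ddr2, the tyrosine kinase receptors, stayed within 4-fold in every comparison with percentile scaling.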

How the data were processed

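The software for the 1-colour arrays was Agilent Feature Extraction 10.5.1.1, per the submitters' processing notes. Per the file headers, the deposited intensity of a spot is background-subtracted and detrended within its array, and no step adjusts the arrays to each other. The authors also deposited a table with a normalized ratio column. The raw column beside it matched the signal error of the scanner files to within 1% on each of the 45018 spots, not the signal, so this ratio served only as an alternative.

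Signals were divided by the 75th percentile of the gene spots of their array and compared as log2 values (Python 3.11.15, numpy 2.4.6, pandas 2.3.3). Controls and outlier spots were dropped, and repeated spots of a probe were averaged as log2. Genes are named through accessions and a RefSeq table. The normexp alternative used limma 3.58.1 in R 4.3.3 with offset 50. With 1 array per tissue nothing was tested, and a 4-fold threshold marks differences. Repeated spots had a median coefficient of variation of 4.81% on the adult liver array, 4.54% on the fetal liver array and 3.6% on the marrow array, and the number of arrays limits precision. The scanner error of a difference comes from the error the software gives each spot.

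All 39 chains are named by rule. Genes of the other lists were picked for naming after their values were seen. The members and lists were chosen with earlier results of these data known. The comparison step was tested on simulated data. Probe positions are those of the array file on build mm9, and promoters are on GRCm38.p6.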

Additional observations from a re-analysis of the deposited data

How the results depend on the processing

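Of 32 chain comparisons past 4-fold, all kept their call under current RefSeq names, the looser detection filter and the percentile over probes detected everywhere. Spike-in scaling kept 13, took 17 under the threshold and turned Col4a2 against marrow to -0.09 (fetal liver) and -0.31 (adult liver). Normexp took 10 under the threshold, averaging all probes 9 and the authors' ratio column 5. The cause was not tested. For fetal against adult liver the 5 chains higher in fetal liver became 3 under normexp, the mean over probes and the authors' column. They also became 3 among chains measured in both tissues and among chains whose compared probes all passed. The latter set also kept chains with fewer than 2 probes to compare, and held 20 chains between the livers. Of chains with more probes, only Col18a1 had all of them past 4-fold there, toward adult liver. The split of 5 and 3 became 10 and 6 at 2-fold. The median of 0.42 became 0.66 with spike-ins, 0.20 with normexp, -0.10 with the mean over probes and 0.27 in the authors' column. For fetal liver against marrow the split of 13 and 2 became 2 and 9 with spike-ins and 8 and 1 with normexp. The number higher in marrow was 1 with the mean over probes and among chains measured in both tissues. The median of 1.07 became -1.18 with spike-ins, 1.46 with the mean over probes and 0.77 in the authors' column. For adult liver against marrow the split of 8 and 1 became 1 and 14 with spike-ins, and the number higher in marrow became 0 with normexp, in the authors' column and among chains whose compared probes all passed, and 5 at 2-fold. The median of 0.87 became -2.0 with spike-ins, 1.20 with normexp, 0.66 with the looser filter, 1.22 with the mean over probes, 1.18 in the authors' column, 1.0 with RefSeq names and 0.74 with Col4a3bp counted. The restrictions to chains measured in both tissues and to chains whose probes all passed were chosen after seeing the data. No replicate could be left out, since each tissue has 1 array. No paired analysis was possible because each tissue has 1 array.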
